A study of Rattus norvegicus with 325 samples.

Results

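The diaphragm of old rats was compared with a limb muscle of rats of the same age, the tibialis anterior. The comparison takes every library whose label names the diaphragm and 27 months, which are 12, against every library whose label names the tibialis anterior and 27 months, which are also 12, so that 24 of the 325 samples of the series enter it. All came from untreated male Sprague Dawley rats bought young and aged by the supplier until some weeks before collection, and the same 2 muscles of 6-month-old males (12 libraries each) are used where the difference at 27 months is set against that of young adults. The labels name no transgene, diet or treatment. The labels do not say which animal gave which library, so the 12 libraries of a muscle were treated as separate samples and the muscles as unpaired, and p-values measure the spread between these libraries. Each age had a single collection day, and the submitters' processing numbers run in blocks by muscle, so muscle and processing order cannot be told apart, nor can age and collection day.

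The diaphragm contracts with every breath throughout life, while the tibialis anterior, which lifts the foot, works in bursts and is built mainly of fast, glycolytic fibres. Muscle fibres are typed by their myosin heavy chain: type I (Myh7) is slow and oxidative, type IIa (Myh2) is fast and oxidative, and types IIx (Myh1) and IIb (Myh4) are the faster, more glycolytic forms. Where a motor nerve meets a fibre, acetylcholine receptors are packed under the nerve ending, and fibres that lose nerve contact are known to make receptor subunits along their whole length together with myogenin, Runx1, Ncam1 and the embryonic receptor subunit Chrng.

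Levels are given as counts per 1000000 counts of the library (CPM), scaled by the trimmed mean of M values (TMM), and differences as log2 of diaphragm over tibialis anterior with the standard error from limma-voom, so that a positive value means a higher level in the diaphragm. A CPM value compares 1 gene between samples and does not compare genes, which differ in length. A gene is called where the Benjamini-Hochberg adjusted p of limma is under 0.05 and the difference exceeds 1.5-fold. The libraries held 21674039 to 55622121 counts in the diaphragm (median 36898488) and 21361000 to 41811324 in the tibialis anterior (median 30129686), with 18.1% and 21.6% of them (medians) on the 10 most counted genes. The first principal component (60.7% of the variance) placed all 12 diaphragm libraries on one side and all 12 tibialis anterior libraries on the other. A pair of libraries stood apart by transcripts of other cell types. Tibialis anterior replicate 9 had a summed level of 519 CPM over 16 hepatocyte markers, where the other 11 had 1.10 to 5.37, and diaphragm replicate 6 had 202 CPM over 13 granulocyte and mast cell markers against 34.5 to 61.5 in the rest. Without the first the number of called genes was 3149, and without the second 3129. In bulk tissue, fewer cells of a type and less RNA per cell cannot be told apart.

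Of 11605 genes tested, 3080 were called (26.5%), with 1725 higher in the diaphragm (14.9%) and 1355 higher in the tibialis anterior (11.7%). Counts of calls in the gene lists at 27 months are to be read against these shares. The median difference over all tested genes was 0.0038 on the log2 scale. Scaling by total counts instead moved that median to 0.11 and the share of calls on the diaphragm side from 56.0% to 67.8%. An adjusted p under 0.05 at any fold was reached by 7871 genes, and the median standard error was 0.0894. Past 4-fold lay 219 genes in the diaphragm direction and 139 in the other, and past 16-fold 36 and 24. In 1002 genes (8.63%) the lowest diaphragm library was above the highest tibialis anterior library, and in 915 (7.88%) the reverse held. The plot of all tested genes shows these differences against mean level.

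**Figure D1:**
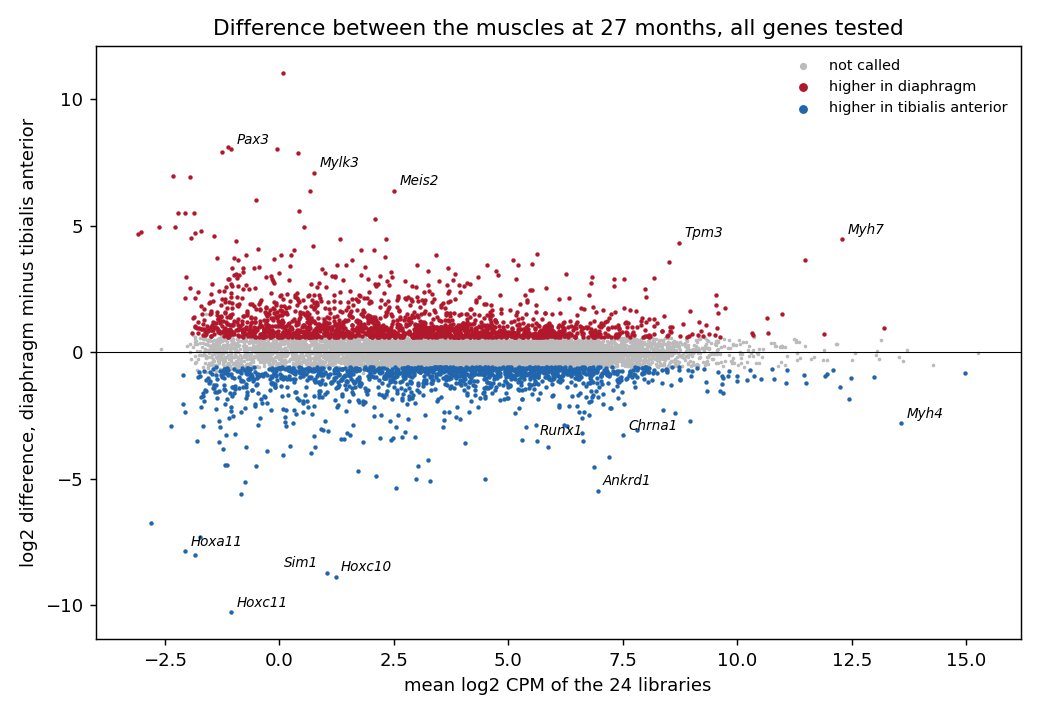
Difference between old diaphragm and old tibialis anterior for each of 11605 tested genes (vertical axis, log2 of diaphragm over tibialis anterior) against its mean level (horizontal axis, log2 CPM), with called genes coloured by direction and some named. The 1725 genes higher in the diaphragm lie above 0 and the 1355 higher in the tibialis anterior below it.

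Among genes with a mean level above 1 CPM, the 10 with the largest differences toward the diaphragm included Msln, Mylk3, Myo3b, Meis2, Cda, Tecrl, Gata4, Ppp1r1c and Lgi1. Mylk3, the cardiac myosin light chain kinase, had 15.2 to 23.1 CPM (median 19.1) in the diaphragm against 0.043 to 0.334, and its summed counts differed 146-fold. Such ratios of summed counts, here and below, were corrected for the total counts of each muscle's libraries, without TMM. Meis2, a homeodomain factor that works beside Hox proteins, had 39.7 to 62.9 CPM against 0.29 to 1.01 and a log2 difference of 6.38 ± 0.17 (adjusted p = 1.70e-20 by limma). Tecrl, a heart-enriched gene of the endoplasmic reticulum, had 15.7 to 40.6 CPM against 0.0906 to 2.60 and a log2 difference of 5.26 ± 0.39 (adjusted p = 1.03e-11 by limma). None of these 3 genes overlapped between the muscles.

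In the other direction the 10 genes were Hoxc10, Sim1, Ankrd1, Emb, Ctxn3, Slc51a, Prrt4, Cd28, Adra1b and Dclk1. Hoxc10, a Hox gene of the posterior body, is described with the positional genes, and Sim1, a helix-loop-helix factor, was read 55 times over the diaphragm libraries and 15015 times over the tibialis anterior libraries, a 333-fold ratio. Emb, a cell adhesion protein of the immunoglobulin superfamily, had 9.69 to 63.8 CPM (median 45.7) in the tibialis anterior and 0.498 to 1.77 in the diaphragm, a log2 difference of -5.37 ± 0.45 (adjusted p = 9.47e-11 by limma). Dclk1, a microtubule-associated kinase, had 144 to 1002 CPM (median 549) in the tibialis anterior against 13.6 to 76.5 in the diaphragm, a log2 difference of -4.53 ± 0.30 (adjusted p = 1.73e-12 by limma). Adra1b, an alpha-1 adrenergic receptor, had 4.68 to 28.6 CPM in the tibialis anterior against 0.159 to 1.27 in the diaphragm. The 12 libraries of each muscle did not overlap for any of these 3 genes. At 6 months Emb, Dclk1 and Adra1b had medians of 0.904, 16.5 and 0.46 CPM in the diaphragm and 0.688, 14.3 and 0.12 in the tibialis anterior.

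The muscles carried different codes of positional transcription factors, which are set in the embryo and mark where along the body a muscle formed. Of 16 Hox genes tested, 5 were higher in the diaphragm and 6 in the tibialis anterior, and within these 11 every gene of the diaphragm side had a lower paralogue number than every gene of the limb side. Hoxa2, Hoxb3, Hoxb4, Hoxb5 and Hoxb7 were higher in the diaphragm, and Hoxa9, Hoxa11, Hoxc8, Hoxc9, Hoxc10 and Hoxc11 in the tibialis anterior. Hoxb4 had 10.7 to 15.7 CPM in the diaphragm and 1.06 to 1.95 in the tibialis anterior, a log2 difference of 3.03 ± 0.11 (adjusted p = 1.18e-17 by limma). Hoxc10 had 0 to 0.39 CPM in the diaphragm and 42.5 to 55.9 (median 48.7) in the tibialis anterior, or 56 counts against 17666, a 384-fold ratio. Hoxc11 was read 0 times over the 12 diaphragm libraries and 6130 times over the tibialis anterior libraries. Its ratio was 2489-fold when 3 counts over the diaphragm group are taken as the floor. The lower limit of its counting interval was 2024. Hoxa11 was read 2 times against 1300, a 792-fold ratio with a counting interval of 219 to 6545. Intervals and floors of this kind cover counting error only.

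Of 19 other positional factors tested, 8 were higher in the diaphragm and 5 in the tibialis anterior. Tbx3, a T-box factor, had 61.6 to 89.0 CPM in the diaphragm against 7.60 to 11.9, a log2 difference of 3.04 ± 0.08 (adjusted p = 8.67e-21 by limma). Gata4 and Wt1, which take part in forming the diaphragm's connective tissue, were read 3749 and 3929 times in the diaphragm libraries against 113 and 8, ratios of 27.2-fold and 403-fold. Zfpm2, a partner of Gata factors, had 6.48 to 10.955 CPM against 2.15 to 4.26, and Shox2 had 6.83 to 15.5 against 0.435 to 1.57. The limb-side genes included Lbx1, which guides migrating muscle precursors (log2 difference -1.22 ± 0.10), Tbx1 (-1.19 ± 0.08), Six2 (-2.23 ± 0.22) and Tbx4 (-0.92 ± 0.40), the last not called by edgeR or DESeq2 (adjusted p = 0.0723 and 0.0639), without the count filter, with total counts or with sample quality weights (adjusted p = 0.0532, 0.0873 and 0.116 by limma). Tbx5, the forelimb factor, was under the count filter with 288 counts in the diaphragm libraries and 6 in the tibialis anterior libraries. Pitx1, the hindlimb factor, was also under the filter with 44 and 107 counts. Pax3, which marks muscle precursors in the embryo, was counted with the satellite cell genes and was read 3595 times in the diaphragm libraries and 9 times in the tibialis anterior libraries, a 328-fold ratio. At 6 months 4 of 15 Hox genes were called on the diaphragm side and 6 on the limb side, and 9 and 4 of 18 other positional factors.

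The adult myosins set the muscles apart by fibre type, and all 4 were called. Myh7 had 18301 to 27258 CPM (median 22240.5) in the diaphragm and 194 to 4774 (median 887) in the tibialis anterior, a log2 difference of 4.46 ± 0.44 (22.1-fold, adjusted p = 1.93e-09 by limma). Myh2 had 10376 to 15469.5 CPM against 3158 to 11066, a log2 difference of 0.94 ± 0.17 (adjusted p = 2.78e-05 by limma). For Myh7 every diaphragm library was above every tibialis anterior library, and for Myh2 the ranges met only at their edges. Myh1 had 17544 to 31744 CPM against 28072 to 52641, a log2 difference of -0.82 ± 0.12 (adjusted p = 1.16e-06 by limma). Myh4 had 1096 to 9932 CPM (median 5433) against 12552 to 71418 (median 29820.0), a log2 difference of -2.81 ± 0.35 (7.03-fold lower in the diaphragm, adjusted p = 1.33e-07 by limma). The spread among tibialis anterior libraries was wide for Myh7 and Myh4, with replicate 9 holding the most Myh4. The myosin genes are close paralogues, and how reads shared between them were counted is not given in the sources used here.

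**Figure D2:**
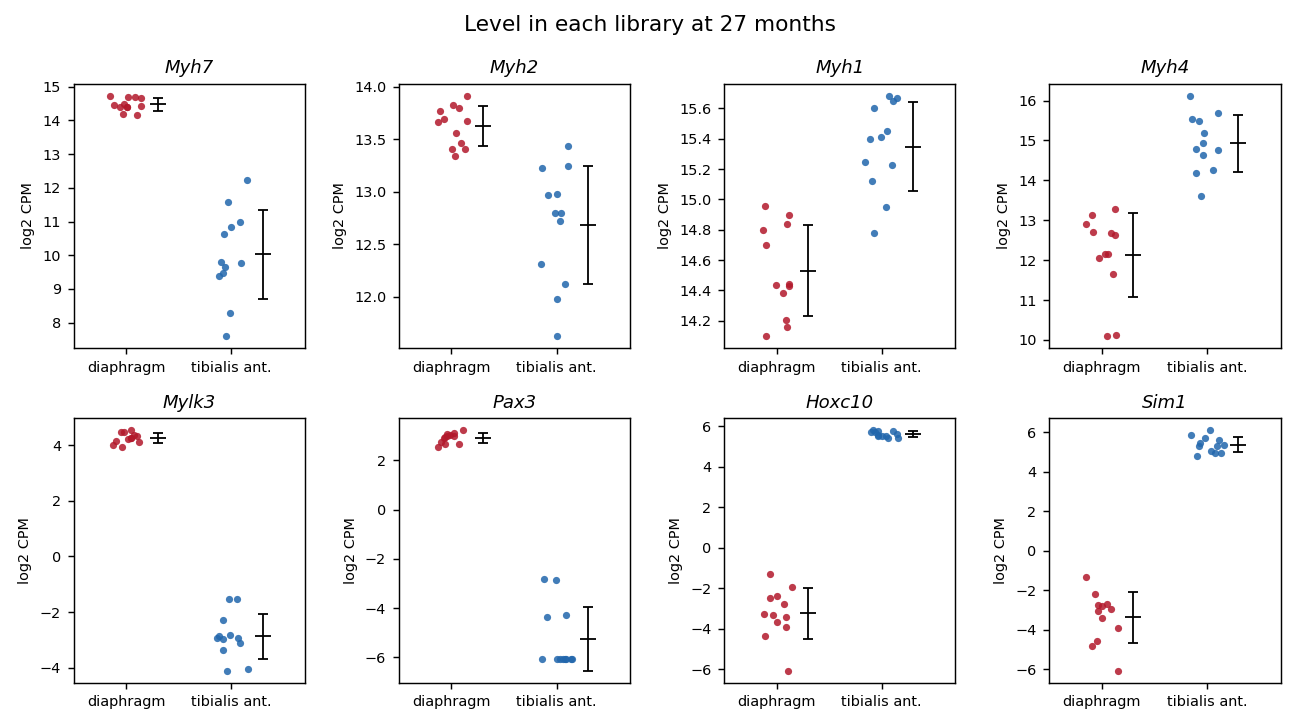
Level of 8 genes in each library at 27 months (vertical axis, log2 CPM), one point per library, red for the 12 of the diaphragm and blue for the 12 of the tibialis anterior, with bars at the mean and SD. Myh7, Mylk3 and Pax3 were higher in every diaphragm library, and Myh4, Hoxc10 and Sim1 in every tibialis anterior library. The lowest row of points in Pax3 is libraries with a count of 0.

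Each of the 3 genes Myh6, Myh7 and Myh7b holds a microRNA in an intron, and the mature forms are printed because these hosts differed more than the other myosin genes described here. Background knowledge ties these microRNAs to the slow fibre type. The capitals mark the seed, bases 2 to 8, which the first 2 share. Sequences are those of RefSeq on rat build GRCr8, at chr15:32395568-32395585 on the minus strand within Myh6, at chr15:32421648-32421665 on the minus strand within Myh7, and at chr3:164570616-164570636 on the plus strand within Myh7b.
rno-miR-208a-3p: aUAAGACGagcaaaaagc
rno-miR-208b-3p: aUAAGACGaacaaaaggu
rno-miR-499-5p: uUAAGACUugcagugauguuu
The libraries count long RNA, so the microRNAs themselves were not measured: Mir208a and Mir208b had 0 and 2 counts over the 24 libraries. The host Myh7b had 101 to 153 CPM in the diaphragm and 6.56 to 20.3 in the tibialis anterior, a log2 difference of 3.65 ± 0.13 (adjusted p = 1.06e-17 by limma). The host Myh6, the alpha cardiac myosin, ranged from 2.15 to 253 CPM among diaphragm libraries (median 91.9) and from 1.18 to 15.6 in the tibialis anterior, a log2 difference of 3.20 ± 1.20 (adjusted p = 0.0213 by limma). The groups overlapped for Myh6 and did not for Myh7b.

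Of 15 slow sarcomere genes, 11 were higher in the diaphragm, 3 were higher in the tibialis anterior and 1 was not called, with a median log2 difference of 2.52. Tpm3, the slow tropomyosin, had 1516 to 2299.9 CPM against 39.6 to 334, a log2 difference of 4.34 ± 0.31 (adjusted p = 5.24e-12 by limma). Atp2a2, the slow and cardiac calcium pump of the sarcoplasmic reticulum, had 8210.1 to 11179.8 CPM against 541 to 1903. Tnnt1, Tnni1 and Tnnc1, the subunits of slow troponin, had log2 differences of 3.55 ± 0.34, 2.72 ± 0.21 and 3.20 ± 0.28. All 11 genes higher in the diaphragm were without overlap. The 3 genes on the limb side, Csrp3, Ankrd2 and Myl6b, include 2 that are known to respond to stretch and load. Csrp3 had 2.75 to 74.9 CPM in the diaphragm and 73.2 to 466 in the tibialis anterior, a log2 difference of -3.75 ± 0.42 (adjusted p = 1.60e-08 by limma), and Ankrd2 differed by -2.48 ± 0.33.

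Of 13 fast sarcomere genes, none was called higher in the diaphragm and 6 were called higher in the tibialis anterior, with a median log2 difference of -0.56. Pvalb, the calcium buffer of fast fibres, had 133 to 335 CPM in the diaphragm and 1005 to 1593 in the tibialis anterior, a log2 difference of -2.73 ± 0.12 (adjusted p = 2.36e-16 by limma). Myl1 and Mylpf, the fast myosin light chains, differed by -1.83 ± 0.11 and -1.39 ± 0.09, and Tnnt3, the fast troponin T, by -1.02 ± 0.08. Actn3, the alpha-actinin of the fastest fibres, had 1613 to 4216 CPM against 1964 to 12584 and a log2 difference of -0.84 ± 0.21 (adjusted p = 0.00114 by limma), with overlapping groups. Not called were Tnni2 (-0.56 ± 0.09), Tnnc2 (-0.35 ± 0.10), Atp2a1 (-0.51 ± 0.17), Casq1 (-0.23 ± 0.12) and Mylk2 (0.20 ± 0.24). At 6 months all 13 were called higher in the tibialis anterior, with a median of -1.63.

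Developmental sarcomere genes, which are made in embryonic and regenerating fibres and in part in the heart, were mostly higher in the tibialis anterior, with 6 of 9 called there and 2 in the diaphragm. Myh3, the embryonic myosin, had 31.7 to 374 CPM in the diaphragm (median 62.5) and 126 to 2256 in the tibialis anterior (median 670.5), a log2 difference of -3.08 ± 0.44 (adjusted p = 1.21e-06 by limma). Myh8, the perinatal myosin, had 16.5 to 53.1 CPM against 43.5 to 168, a log2 difference of -1.64 ± 0.21. Mybph, a myosin-binding protein of the same stage, had 9.999 to 104 CPM against 359 to 966 and a log2 difference of -4.16 ± 0.35 (adjusted p = 1.10e-10 by limma), and it alone of these 3 did not overlap. On the diaphragm side lay Myh6 and Tnni3, both cardiac forms.

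Of 21 regulators of fibre type, 9 were higher in the diaphragm and 3 in the tibialis anterior. Prox1, a homeobox factor of slow fibres and of lymphatic endothelium, had 68.1 to 84.7 CPM against 4.92 to 12.3, a log2 difference of 3.45 ± 0.11 (adjusted p = 8.36e-19 by limma). Esrrb and Esrrg, nuclear receptors that drive oxidative genes, differed by 2.85 ± 0.19 and 0.99 ± 0.10. Ppara and Ppard, nuclear receptors of fat oxidation, differed by 1.47 ± 0.10 and 0.92 ± 0.06. Ppargc1a, the coactivator of mitochondrial genes, had 61.4 to 125 CPM against 36.6 to 68.5, a log2 difference of 0.77 ± 0.11 (adjusted p = 1.17e-06 by limma). Sox6, which represses slow genes, and Maf, a factor of IIb fibres, were higher in the tibialis anterior (-0.75 ± 0.09 and -0.77 ± 0.07), without overlap. The third was Rcan1, a target of calcineurin (-0.95 ± 0.16).

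**Figure D3:**
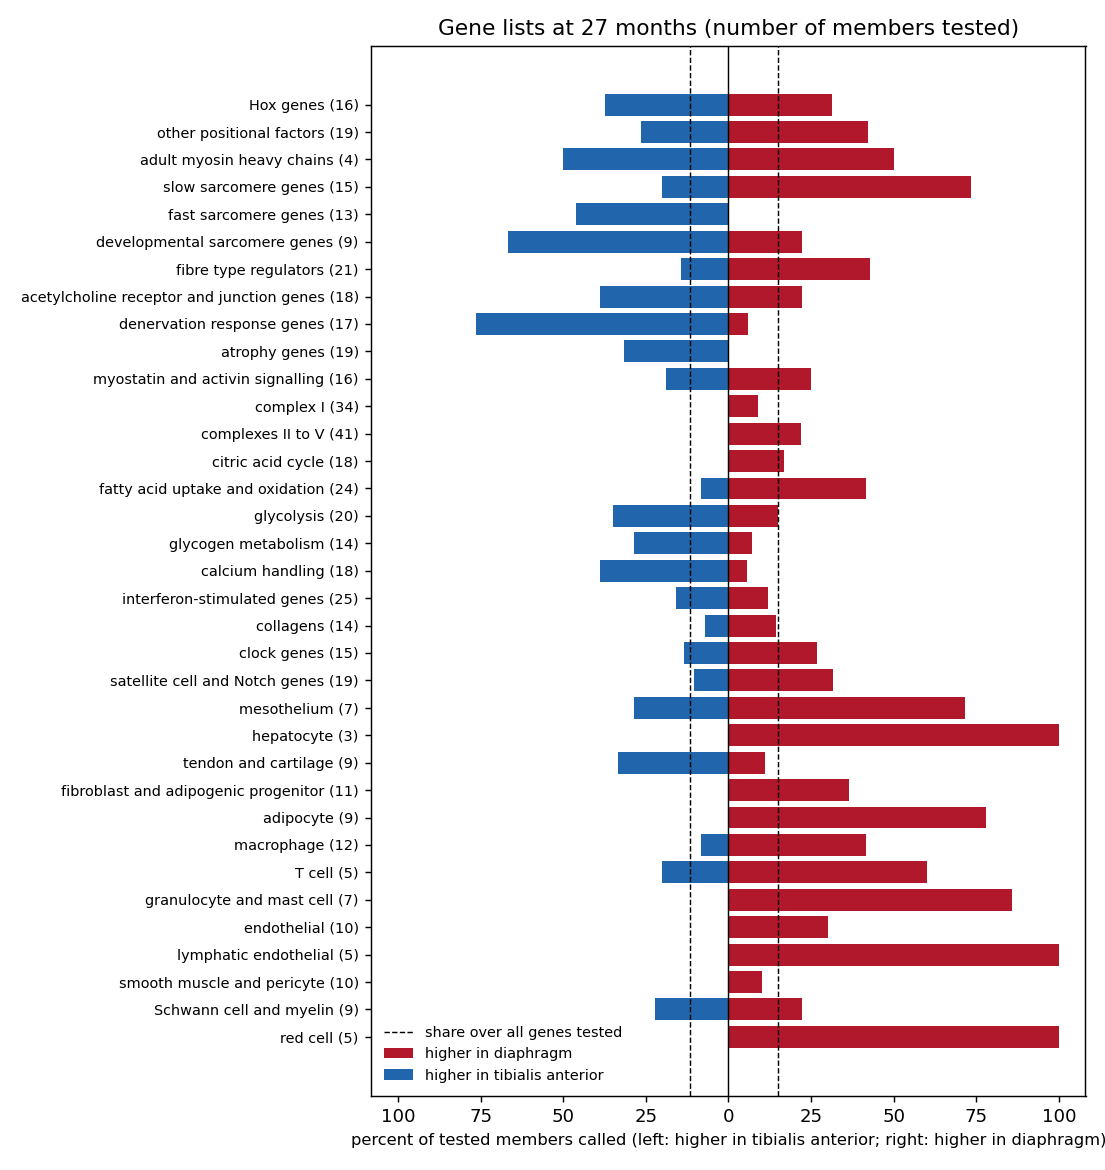
Share of the tested members of each gene list that were called at 27 months (horizontal axis, percent), to the right where higher in the diaphragm and to the left where higher in the tibialis anterior, with the number tested in parentheses and dashed lines at the shares over all genes tested (14.9% and 11.7%). Of 15 slow sarcomere genes 11 were called to the right and 3 to the left, and of 17 denervation response genes 1 and 13.

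Genes of the acetylcholine receptor stood higher in the old tibialis anterior. Of 18 receptor and junction genes, 4 were higher in the diaphragm and 7 in the tibialis anterior, with a median log2 difference of -0.36. Chrna1, the alpha subunit that binds acetylcholine, had 23.1 to 197 CPM in the diaphragm (median 50.5) and 139 to 1069 in the tibialis anterior (median 634), a log2 difference of -3.27 ± 0.35 (9.64-fold, adjusted p = 8.81e-09 by limma). Chrnd, the delta subunit, had 40.3 to 133 CPM (median 66.2) against 71.4 to 338 (median 218), a difference of -1.51 ± 0.22 (adjusted p = 1.49e-06 by limma). Both sets of libraries overlapped at their edges, with tibialis anterior replicate 9 the lowest of its muscle for both genes. Chrng, the embryonic subunit, had 2.19 to 21.3 CPM against 6.96 to 72.7, a difference of -2.17 ± 0.42 (adjusted p = 5.95e-05 by limma), and Chrne, its adult replacement, had 9.06 to 12.3 CPM against 12.9 to 40.8, a difference of -1.13 ± 0.17. Chrnb1 (-0.97 ± 0.10), Rapsn, the scaffold that clusters receptors (-0.65 ± 0.06), and Musk, the kinase that starts the clustering (-1.31 ± 0.23), completed the 7. On the diaphragm side were Colq, which anchors acetylcholinesterase at the junction (16.5 to 29.6 CPM against 2.07 to 6.31, log2 difference 2.65 ± 0.14), Erbb4 (1.96 ± 0.22), its ligand Nrg1 (1.75 ± 0.30) and Agrn, the nerve and muscle signal for clustering (0.69 ± 0.05).

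The promoters of 3 receptor subunits are printed because these genes moved together and because E-boxes, the letters bound by Myod1 and myogenin, are known to act in them. Each window runs from 250 bases before to 50 bases after the RefSeq start on GRCr8, and the capitals mark CAGCTG, an E-box form that reads alike on both strands. The wider form CANNTG, which takes in CAGCTG, was matched 3 times in Chrna1, 1 time in Chrnd and 4 times in Chrng, and 72.1% of all promoters in the table held it. The windows are chr3:78877304-78877603 on the minus strand for Chrna1, chr9:95310066-95310365 on the plus strand for Chrnd and chr9:95325734-95326033 on the plus strand for Chrng.
Chrna1: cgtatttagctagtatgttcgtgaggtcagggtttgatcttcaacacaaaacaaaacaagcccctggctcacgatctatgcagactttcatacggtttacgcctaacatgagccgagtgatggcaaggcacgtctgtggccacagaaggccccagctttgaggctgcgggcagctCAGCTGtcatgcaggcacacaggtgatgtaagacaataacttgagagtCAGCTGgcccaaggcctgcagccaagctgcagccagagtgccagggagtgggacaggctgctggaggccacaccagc
Chrnd: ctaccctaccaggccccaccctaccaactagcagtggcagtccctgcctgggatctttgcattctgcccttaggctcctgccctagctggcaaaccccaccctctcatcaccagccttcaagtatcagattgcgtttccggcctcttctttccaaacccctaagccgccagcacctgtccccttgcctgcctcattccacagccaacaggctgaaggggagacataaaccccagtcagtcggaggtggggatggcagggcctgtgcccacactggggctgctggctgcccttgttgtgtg
Chrng: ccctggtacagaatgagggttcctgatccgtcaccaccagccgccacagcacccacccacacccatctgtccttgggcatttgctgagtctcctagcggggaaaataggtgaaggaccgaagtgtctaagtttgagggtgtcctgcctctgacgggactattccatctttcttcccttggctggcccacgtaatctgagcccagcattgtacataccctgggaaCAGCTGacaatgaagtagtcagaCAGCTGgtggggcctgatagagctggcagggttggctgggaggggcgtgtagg
Chrna1 and Chrng held 2 matches each to CAGCTG and Chrnd 0. Of 33469 promoters in the table, 5040 (15.1%) held at least 1. Among the 18 receptor and junction genes 13 had an entry and 7 of those (53.8%) held a match, and among the 17 denervation response genes 10 had an entry and 1 (10%) held a match. A gene was counted where any of its entries held a match, whereas the 15.1% counts single promoters, so these shares are not like measures. A match is a run of letters, not a measured binding site.

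The genes known to respond to loss of nerve contact had the lowest median difference of all the lists described. The list was written with earlier results of these data known, so its rank and counts, here and for the change with age, are not independent of them. Of 17 tested, 13 were higher in the tibialis anterior, 1 (Hdac9) was higher in the diaphragm and 3 were not called, against 11.7% and 14.9% of all genes, and the median log2 difference was -2.20. Runx1, a transcription factor that is induced after denervation, had 11.05 to 86.0 CPM in the diaphragm (median 21.6) and 158 to 616 in the tibialis anterior (median 344), a log2 difference of -3.50 ± 0.35 (adjusted p = 2.14e-09 by limma). Myog, myogenin, had 14.4 to 68.2 CPM (median 25.2) against 90.6 to 216 (median 147), a difference of -2.15 ± 0.24 (adjusted p = 2.40e-08 by limma). Hdac4, the deacetylase that passes the denervation signal to myogenin, had 48.1 to 104 CPM against 159 to 439, a difference of -2.20 ± 0.18. None of these 3 overlapped. Ncam1, an adhesion molecule, had 25.1 to 87.0 CPM against 86.2 to 356 (-2.61 ± 0.21) and overlapped between 86.2 and 87.0 CPM.

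Cdkn1a, the cell cycle inhibitor p21, had 66.8 to 321 CPM in the diaphragm against 241 to 1259 in the tibialis anterior (-2.30 ± 0.29), and Gadd45a, a stress gene, had 13.4 to 83.7 against 118 to 373 (-2.91 ± 0.30). Ankrd1, a titin-bound stress protein, had 5.34 to 93.8 CPM against 358 to 1657, a log2 difference of -5.47 ± 0.46 (44.5-fold, adjusted p = 1.12e-10 by limma). The metallothioneins Mt1a and Mt2A differed by -2.41 ± 0.36 and -3.37 ± 0.39, Kcnn3, a potassium channel, by -2.13 ± 0.16, and Myod1 by -1.67 ± 0.16. Sln, the calcium pump inhibitor sarcolipin, was not called, with 26.3 to 49.6 CPM in the diaphragm against 8.28 to 55.7 (0.35 ± 0.21, adjusted p = 0.138 by limma), and neither were Gap43 (0.27 ± 0.26) and Ncam2 (-0.15 ± 0.24). Beside this list, 2 of 9 Schwann cell and myelin markers were called in each direction, and they summed to 131 to 212 CPM in the diaphragm and 97.5 to 183 in the tibialis anterior.

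As a mean over the 17 genes on the log2 CPM scale, the diaphragm libraries ran from 3.59 to 5.20 (median 3.93) and the tibialis anterior libraries from 5.07 to 6.73 (median 6.30). The lowest tibialis anterior library was replicate 9, and without it the lowest was 5.57, above every diaphragm library. The highest diaphragm library was replicate 5, and the next highest stood at 4.97. Young diaphragm libraries had 3.00 to 3.91 (median 3.11) and young tibialis anterior libraries 2.09 to 3.33 (median 2.76), so that the order of the muscles' medians at 6 months was the opposite.

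**Figure D4:**
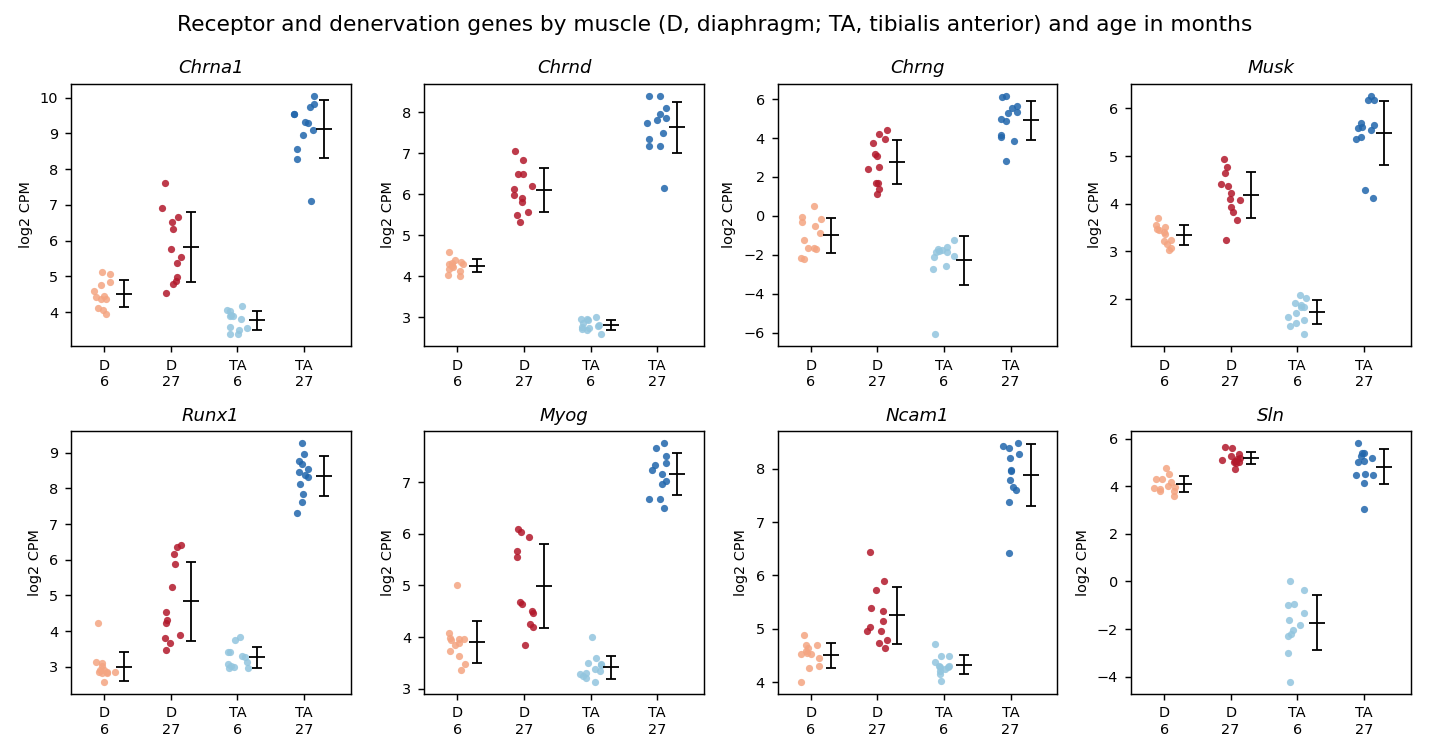
Level of 8 receptor and denervation response genes in each library (vertical axis, log2 CPM) for the diaphragm (D) and tibialis anterior (TA) at 6 and 27 months, one point per library, with bars at the mean and SD of 12 libraries. Runx1 lay at 11.05 to 86.0 CPM in the old diaphragm and 158 to 616 CPM in the old tibialis anterior, while Sln overlapped between the old muscles.

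Within each muscle the libraries differed in how much of this programme they held, and Chrnd was set against 5 genes over the 12 libraries. In the tibialis anterior Chrnd rose with Sln (Pearson r = 0.938, rho = 0.825, permutation p = 7e-05, adjusted 0.00055 over the 10 relations tested) and with Cdkn1a (r = 0.897, rho = 0.853, permutation p = 0.00011, adjusted 0.00055). Without the 2 libraries farthest from the median of Chrnd r was 0.813 and 0.770, and without replicate 9 it was 0.860 and 0.807 (adjusted permutation p = 0.009 and 0.0138). Chrnd ran against Myh4 (r = -0.722, rho = -0.643, permutation p = 0.00735, adjusted 0.0184) and Ppargc1a (r = -0.664, rho = -0.692, permutation p = 0.0176, adjusted 0.0352). Neither of these last 2 relations passed without replicate 9, where r was -0.584 and -0.489 with adjusted permutation p of 0.102 and 0.185. With all libraries but scaled by total counts, that of Ppargc1a did not pass either (r = -0.456, adjusted permutation p = 0.194). In the diaphragm Chrnd rose with Cdkn1a (r = 0.777, rho = 0.650, permutation p = 0.00331, adjusted 0.011), and r was 0.609 without the 2 farthest libraries. Its relations to Sln (r = 0.610, rho = 0.566, permutation p = 0.0342, adjusted 0.0489) and Trim63 (r = 0.625, rho = 0.531, permutation p = 0.0304, adjusted 0.0489) had adjusted permutation p of 0.0897 and 0.0944 without replicate 6. Myh4 and Ppargc1a in the diaphragm and Trim63 in the tibialis anterior gave r of -0.438, 0.145 and 0.164 (rho -0.168, 0.126 and 0.315, permutation p = 0.154, 0.653 and 0.615, adjusted 0.193, 0.653 and 0.653). By Spearman's rho alone, only Sln and Cdkn1a in the tibialis anterior had an adjusted permutation p under 0.05 (0.00855 and 0.0082). All permutation tests were two-sided, over 12 libraries or over 11 where one was left out.

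Of 19 genes tied to muscle atrophy, none was called higher in the diaphragm and 6 were called higher in the tibialis anterior. Over all genes these shares were 14.9% and 11.7%. Trim63, the ubiquitin ligase MuRF1, had 74.1 to 218 CPM (median 97.0) against 163 to 385 (median 239.9), a log2 difference of -1.19 ± 0.17 (adjusted p = 9.08e-07 by limma). Fbxo30 (-1.68 ± 0.22) and Fbxo31 (-1.53 ± 0.09), further ligase subunits, and Ctsl, the lysosomal protease cathepsin L (-1.34 ± 0.14), were higher there too, as were Trim55 and Eif4ebp1. Fbxo32, the ligase atrogin-1, had 157 to 236 CPM against 140.2 to 336 and was not called (-0.36 ± 0.12). In myostatin and activin signalling 4 of 16 genes were higher in the diaphragm, 3 in the tibialis anterior and 9 were not called. Against the same shares of all genes, these few calls are not read as a result about the list. Fst, the follistatin that binds activins and myostatin, had 2.43 to 9.07 CPM against 5.72 to 35.2 (-1.94 ± 0.26), and Gdf11, a close relative of myostatin, had 4.74 to 6.65 against 11.2 to 29.5 (-1.48 ± 0.12). The diaphragm held more Bmp7 (1.77 ± 0.25), the activin chains Inhba (1.41 ± 0.28) and Inhbb (0.77 ± 0.14), and the receptor Acvr2b (0.68 ± 0.12). Myostatin, Mstn, was not called (3.37 against 3.73 CPM, medians, -0.26 ± 0.19).

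Calls in the mitochondrial lists are to be read against the 14.9% of all genes called on the diaphragm side. Of 34 genes of complex I, 3 were called, all in the diaphragm, and the median log2 difference was 0.29. Of 41 genes of complexes II to V 9 were called, all in the diaphragm (median 0.30), and of 18 genes of the citric acid cycle 3 (median 0.37). Sdhb, a subunit of succinate dehydrogenase, had 406 to 516 CPM against 204 to 337, a log2 difference of 0.83 ± 0.08 (adjusted p = 1.01e-09 by limma). Idh2, the mitochondrial isocitrate dehydrogenase, had 2046 to 2883 CPM against 711 to 1232 (1.34 ± 0.09), and Mdh1 had 795 to 984 against 299 to 609 (1.07 ± 0.11). All 3 were without overlap. Without diaphragm replicate 6 Ndufc2 of complex I and Sdha of complex II were no longer called. The share called was below that of all genes in complex I, above it in complexes II to V and near it in the citric acid cycle. Scaled by total counts, these lists had 7, 11 and 8 genes called in the diaphragm, where 2146 of all genes were called.

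Fatty acid genes differed more. Of 24 for uptake and oxidation, 10 were higher in the diaphragm and 2 in the tibialis anterior, with a median log2 difference of 0.57. Lpl, the lipase that frees fatty acids from blood lipids, had 1173 to 2411 CPM (median 1527) against 254 to 507 (median 323), a log2 difference of 2.25 ± 0.12 (adjusted p = 2.47e-14 by limma). Fabp3, a fatty acid carrier, differed by 1.44 ± 0.11, Slc27a1, a transporter, by 1.46 ± 0.12, and Hadh and Cpt2, enzymes of beta-oxidation, by 1.30 ± 0.12 and 1.16 ± 0.09. The 2 exceptions were Ucp3, an uncoupling protein (7.70 to 88.5 CPM against 105 to 336, -2.86 ± 0.35), and Acsl6 (-0.67 ± 0.19). Adipocyte markers were also higher in the diaphragm: 7 of 9 were called, and their sum was 133 to 426 CPM against 98.3 to 139. Their part in the fatty acid genes was not tested.

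In glycolysis 7 of 20 genes were higher in the tibialis anterior and 3 in the diaphragm (median log2 difference -0.26). Slc16a3, which exports lactate, had 8.78 to 28.3 CPM against 24.4 to 289 (-2.95 ± 0.33), and Slc16a1, which imports it, had 214 to 332 against 86.9 to 161 (1.18 ± 0.11). The lactate dehydrogenase chains split the same way, with Ldha at 513 to 879 CPM against 714 to 2373 (-0.93 ± 0.16) and Ldhb at 312 to 497 against 37.8 to 85.4 (2.89 ± 0.12, adjusted p = 7.72e-17 by limma). Tpi1 (-1.25 ± 0.13), Gpd2 (-0.97 ± 0.11), Pkm (-0.94 ± 0.19), Eno3 (-0.89 ± 0.19) and Pfkfb4 (-0.78 ± 0.13) made up the limb side. Of 14 glycogen genes 4 were higher in the tibialis anterior, among them Stbd1, which tethers glycogen (42.1 to 68.6 CPM against 139 to 188, -1.62 ± 0.07), and 1, Ppp1r3d, in the diaphragm. Of 18 calcium handling genes 7 were higher in the tibialis anterior, with Cacnb1, a subunit of the voltage sensor (-1.07 ± 0.09), Stim2 (-1.03 ± 0.06) and Jsrp1 (-1.02 ± 0.07) the furthest of them, and 1 in the diaphragm. That one was Pln, phospholamban, the inhibitor of the slow calcium pump (19.7 to 54.4 CPM against 6.78 to 15.6, 1.41 ± 0.15).

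Satellite cells are the stem cells of muscle, and of 19 genes of these cells and of Notch signalling 6 were higher in the diaphragm and 2 in the tibialis anterior. Besides Pax3 the diaphragm held more Calcr (1.38 ± 0.14), the Notch target Heyl (0.95 ± 0.06), Chrdl2 (0.81 ± 0.11), Pax7 (4.21 to 8.06 CPM against 1.70 to 6.25, 0.63 ± 0.15) and Dll4 (0.60 ± 0.10). Without tibialis anterior replicate 9 Pax7 was no longer called, and without diaphragm replicate 6 Dll4 was no longer called. Myf5 and Myf6, which act in committed muscle cells, were higher in the tibialis anterior (-0.79 ± 0.23 and -0.87 ± 0.09). Collagens gave 2 calls of 14 in the diaphragm, Col14a1 (167 to 309 CPM against 42.6 to 107, 1.69 ± 0.14) and Col15a1 (0.72 ± 0.13), and 1 in the tibialis anterior, Col5a3 (-0.60 ± 0.18). Interferon-stimulated genes split 3 to 4 of 25, all within 2-fold, with Oas1a, Oasl and Bst2 on the diaphragm side and Ifi27, Psmb8, Psmb9 and Isg15 on the other. For the collagens and the interferon-stimulated genes these shares were near or below those of all genes, 14.9% in the diaphragm and 11.7% in the tibialis anterior. Of 15 clock genes 4 (Npas2, Nfil3, Per2 and Ciart) were higher in the diaphragm and 2 (Arntl and Clock) in the tibialis anterior, and Ciart was not called without diaphragm replicate 6. Arntl had medians of 8.19 and 12.8 CPM at 27 months and 52.7 and 59.2 at 6 months. The summed levels of the 15 clock genes overlapped between the ages in both muscles, and change with age within a muscle was not tested.

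In most lists of other cell type markers more genes were called in the diaphragm than in the tibialis anterior. Exceptions were the Schwann cell and myelin, the tendon and cartilage, and the B and plasma cell markers. Counts in this and the next 2 paragraphs are to be read against the 14.9% and 11.7% of all genes called on these sides. Smooth muscle and pericyte markers, with 1 call of 10, lay below the first share. All 5 lymphatic endothelial markers were called there, and their sum was 326 to 862 CPM in the diaphragm and 37.4 to 65.4 in the tibialis anterior. Ccl21, the lymphatic chemokine, had 123 to 393 CPM against 5.84 to 17.3 (3.90 ± 0.16, adjusted p = 1.84e-16 by limma), and Reln 93.3 to 300.4 against 8.57 to 17.3 (3.47 ± 0.15). Lyve1, which marks lymphatic vessels and some resident macrophages, had 32.7 to 60.1 CPM against 4.58 to 9.90 (2.70 ± 0.12). These 3 genes did not overlap between the muscles. Prox1, one of the 5, is also made in slow fibres, and its 10.9-fold difference cannot be divided between the cell types here.

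The abdominal and chest faces of the diaphragm are covered by mesothelium, and 5 of 7 markers of that layer were called in the diaphragm. Msln, mesothelin, had 2.44 to 57.6 CPM (median 25.4) against 0 to 0.335, or 11192 counts against 40, a 230-fold ratio, and Bnc1 was read 3539 times against 8, a 363-fold ratio. The keratins Krt8 and Krt18 went the other way: Krt18 had 0.438 to 2.97 CPM in the diaphragm against 2.65 to 33.7 (-3.53 ± 0.54). Of 7 granulocyte and mast cell markers 6 were higher in the diaphragm, with Cpa3, a mast cell protease, at 12.7 to 131 CPM against 3.04 to 7.99, and the highest value in replicate 6. Fibroblast and adipogenic progenitor markers gave 4 calls of 11, all in the diaphragm, red cell markers 5 of 5, endothelial markers 3 of 10, T cell markers 3 of 5 with 1 in the tibialis anterior, and smooth muscle and pericyte markers 1 of 10. B and plasma cell markers gave 0 calls of 1 tested.

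Macrophage markers gave 5 calls of 12 in the diaphragm and 1 in the tibialis anterior, with sums of 425 to 901 CPM against 270.0 to 572. Without diaphragm replicate 6 the highest sum in that muscle was 631, and without either of the libraries that stood apart Csf1r was no longer called. The marker on the limb side was Gpnmb, a glycoprotein of lysosome-rich macrophages, with 20.4 to 74.0 CPM against 78.8 to 272 (-2.11 ± 0.25, adjusted p = 4.79e-08 by limma) and no overlap. Schwann cell and myelin markers gave 2 calls in each direction of 9, and tendon and cartilage markers 1 in the diaphragm and 3 in the tibialis anterior of 9. The 3 hepatocyte markers that could be tested were called in the diaphragm, where the sum over the list was 5.89 to 41.4 CPM. The count filter favours genes read in most libraries of a muscle, so these calls are not independent of it. The markers under the filter all had more counts over the tibialis anterior libraries, such as Apob with 1452 against 344. Replicate 9 of that muscle had a sum of 519 CPM over the list, and the rest at most 5.37. Alb, albumin, had 2.31 to 23.6 CPM in the diaphragm and, but for replicate 9 with 367, at most 3.06 in the tibialis anterior. Its log2 difference was 3.03 ± 0.82 with all libraries and 3.71 without replicate 9 by limma, and -1.99 by edgeR with all libraries (adjusted p = 0.0997).

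The same contrast at 6 months showed which differences between the muscles belonged to both ages. At 6 months 3873 of 11326 genes were called (34.2%), with 2538 in the diaphragm direction (22.4%) and 1335 in the other (11.8%). Under total-count scaling 90.6% of the 6-month calls lay on the diaphragm side in place of 65.5%, and the median of all genes stood at 0.41 in place of 0.02. No library is shared between the ages. Over 11287 genes tested at both, 2912 were called at 27 months and 3844 at 6 months, and 1852 were called at both in the same direction, which is 63.6% of the first and 48.2% of the second. Of these, 1282 were higher in the diaphragm and 570 in the tibialis anterior. A further 114 were called at both ages in opposite directions, of which 97 were higher in the young diaphragm and in the old tibialis anterior, and 17 the reverse.

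**Figure D5:**
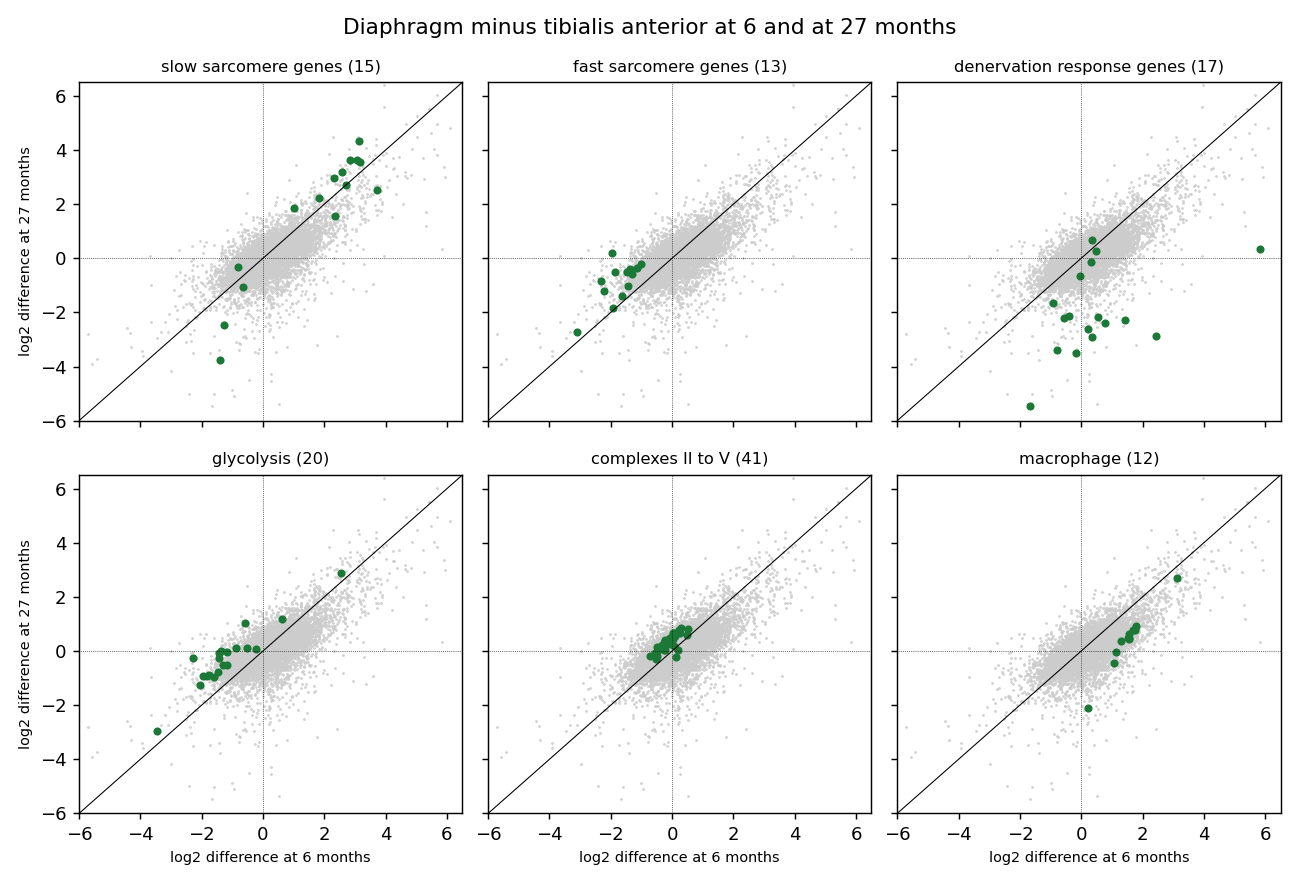
Difference between diaphragm and tibialis anterior at 27 months (vertical axis) against that at 6 months (horizontal axis), both log2 of diaphragm over tibialis anterior, with all genes tested at both ages in grey, the members of 6 lists in green and a line of equal difference. The plotted range leaves out 17 genes. The change with age was called toward the tibialis anterior in 13 of 17 denervation response genes and 11 of 12 macrophage markers.

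Taking the difference at 27 months minus the difference at 6 months in a fit of all 48 libraries, 2531 of 11910 genes passed (21.3%), 834 toward the diaphragm (7.0%) and 1697 toward the tibialis anterior (14.2%). The share toward the diaphragm was 33.0% of these calls and 8.13% under total-count scaling, which moved the median of all genes from -0.02 to -0.33. Emb (-5.86), Sln (-5.47), Calml3 (-4.96), Dclk1 (-4.77), Scd1 (-4.59), Faah (-4.51) and Ctxn3 (-4.13) were among the genes with a mean level above 1 CPM that moved furthest toward the old tibialis anterior. Sln had a median of 15.9 CPM in the young diaphragm and 0.291 in the young tibialis anterior, and 34.7 and 32.8 in the old muscles, so a gene that separated the young muscles did not pass between the old ones. Scd1, a fatty acid desaturase, had medians of 91.6 and 8.47 CPM at 6 months and 223 and 519 at 27 months. By the same limit on level, furthest in the other direction were Ubxn10 (3.81), Unc5a (3.02), Myh4 (2.88), Adcy1 (2.81), Espl1 (2.72), Adgrb2 (2.70), Foxp3 (2.52) and Hoxc10 (2.52). Myh4 had medians of 1247 and 90906 CPM at 6 months and 5433 and 29820.0 at 27 months, so its difference was smaller between old muscles. In all 8 genes the young tibialis anterior had the highest median of the 4 groups.

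Of 17 denervation response genes 13 passed the change with age, all toward the old tibialis anterior, where 14.2% of all genes passed. Their median was -2.68, and 14 passed under total-count scaling. At 6 months 4 of them were higher in the diaphragm and 3 in the tibialis anterior. Of 18 receptor and junction genes 7 passed, all in the same direction, or 10 under total-count scaling. Chrna1 had medians of 21.6 CPM in the young diaphragm and 14.3 in the young tibialis anterior, and a change of -4.03 ± 0.40 (adjusted p = 3.11e-11 by limma). For Chrnd the young medians were 19.3 and 6.96 CPM, and the change was -2.97 ± 0.28 (adjusted p = 5.83e-12 by limma). Musk, at 10.4 and 3.40 CPM in the young muscles, changed by -2.95 ± 0.33. All 3 were called higher in the young diaphragm and in the old tibialis anterior.

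The lists of fast metabolism moved in the other direction. Counts here are to be read against 7.0% of all genes that passed toward the diaphragm and 14.2% toward the tibialis anterior. Of 20 glycolysis genes 16 had been higher in the young tibialis anterior against 7 in the old, and 16 passed the change with age toward the diaphragm (10 under total-count scaling). Of 14 glycogen genes 8 passed (4 under total counts) and of 13 fast sarcomere genes 9 (6 under total counts). Of complex I 6 of 34 genes and of complexes II to V 7 of 41 passed toward the diaphragm as well. Under total-count scaling 0 of either did, and 1 of complexes II to V passed the other way. Their median changes stayed positive, at 0.18 and 0.14 in place of 0.49 and 0.45. The calls thus depended on the scaling, and the sign of the medians did not. Of 12 macrophage markers 11 had been higher in the young diaphragm, and 11 passed toward the old tibialis anterior, where their sum was 91.9 to 164 CPM at 6 months and 270.0 to 572 at 27 months. Of 14 collagens 7 passed in the same direction as the macrophage markers, and 8 had been higher in the young diaphragm.

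The old soleus and gastrocnemius, hindlimb muscles of slow and mixed type, allow the levels to be placed in order without a test. Runx1 had a median of 21.6 CPM in the diaphragm, 146 in the soleus (12 libraries), 214 in the gastrocnemius (11 libraries) and 344 in the tibialis anterior. Chrna1 had medians of 50.5, 395, 323 and 634 in the same order of muscles, with the ranges of the 3 limb muscles overlapping and the diaphragm's highest library at 197. Myh7 had medians of 22240.5, 31601, 8775 and 887. For Chrna1 and Runx1 the soleus medians stood above those of the diaphragm and below those of the tibialis anterior. A part of fibre type in this order was not tested. Hoxc10 had medians of 44.9 in the soleus and 52.7 in the gastrocnemius, near the 48.7 of the tibialis anterior, while Sim1 had 70.9 in the soleus, 6.14 in the gastrocnemius and 40.2 in the tibialis anterior.

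The old tibialis anterior libraries varied more among themselves than the old diaphragm libraries. The median standard deviation of log2 CPM over the tested genes was 0.236 in the tibialis anterior and 0.193 in the diaphragm, and 64.6% of genes had the larger value in the tibialis anterior. Without tibialis anterior replicate 9 and diaphragm replicate 6 the medians were 0.226 and 0.181, and the share was 66.8%.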

How the data were processed

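Muscles were stored in RNAlater, and total RNA was made into strand-specific libraries after ribosomal RNA removal and sequenced as read pairs. The authors aligned and counted the reads per gene with the ArrayStudio pipeline (version not given in the sources used here) on the rat B6.0 reference with an in-house gene model based on RefSeq, and deposited raw counts, 1 file per library. Each file held 17870 lines with 17315 symbols, and lines of the 494 symbols found more than once were summed. From these counts, genes were kept by filterByExpr of edgeR 4.0.16 (minimum count 10, minimum total 15), scaled by TMM and tested with limma 3.58.1 (voom, no pairing, R 4.3.3), calling genes at an adjusted p under 0.05 and over 1.5-fold. The 24 libraries of each age were fitted alone, and all 48 for the change with age. DESeq2 1.42.0, edgeR's quasi-likelihood test and further settings were alternatives. Levels are CPM over TMM-scaled library sizes. Fold ratios of summed counts were corrected for the groups' total counts alone. Correlations used log2 CPM and 100000 permutations (Python 3.11.15, scipy 1.17.1). The fit was tested on simulated data. Library totals of 21361000 to 55622121 counts leave counting error small beside the spread between libraries except in genes of few counts. Named genes were the 10 called genes with the largest difference in each direction and the 8 with the largest change with age in each direction, both among genes with a mean log2 CPM over 0, and Myh7 and Myh4, and members of the gene lists. The groups, members and lists were chosen with earlier results of these data known. Sequences came from RefSeq tables on GRCr8, whose coordinates were not joined to those of the count files. Libraries of other muscles and ages were not used here, except the levels of old soleus and gastrocnemius. A few of the genes that this rule picks are not reported here.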

Additional observations from a re-analysis of the deposited data

Results flagged for a closer look

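The muscle difference itself was tested between the ages, and 2531 genes differed. On the log2 scale (difference at 27 months minus that at 6 months), genes chosen by size among those with a mean log2 CPM over 0 moved toward the old tibialis anterior by -5.86 (Emb), -5.47 (Sln), -4.96 (Calml3), -4.77 (Dclk1), -4.59 (Scd1), -4.51 (Faah) and -4.13 (Ctxn3). Toward the old diaphragm they moved by 3.81 (Ubxn10), 3.02 (Unc5a), 2.88 (Myh4), 2.81 (Adcy1), 2.72 (Espl1), 2.70 (Adgrb2), 2.52 (Foxp3) and 2.52 (Hoxc10), and the slow myosin Myh7 moved by 1.40. Unlike Myh4, Myh7 moved so by a wider gap at 27 months. Hoxc10 lay near the floor of counts in the diaphragm at both ages, so the size of its change is uncertain.

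Of the receptor and junction genes, the same test picked out the subunits Chrna1 (-4.03), Chrng (-3.44), Chrnd (-2.97) and Chrne (-1.01), the kinase Musk (-2.95), its partner Lrp4 (-0.83) and the neuregulin receptor Erbb3 (-0.86). Lrp4 and Erbb3 were not called between the old muscles. Of the denervation response genes it picked out, besides Sln, Ankrd1 (-3.77), Cdkn1a (-3.70), Runx1 (-3.30), Gadd45a (-3.21), Mt1a (-3.16), Ncam1 (-2.80), Myog (-2.68), Mt2A (-2.56), Kcnn3 (-1.72), Hdac4 (-1.61) and Myod1 (-0.69).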

How the results depend on the processing

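Age and collection day cannot be told apart, and the labels do not tie libraries to animals. At 27 months 3080 genes were called, and 3085 with DESeq2's size factors, 3098 with DESeq2, 3094 with edgeR, 3163 with total counts, 3831 without the count filter and 2128 with Bonferroni adjustment. At a 2-fold threshold 1294 were called (757 in the diaphragm, 537 in the tibialis anterior). For the change with age, Bonferroni adjustment left 1190 (533 and 657), a 2-fold threshold 1131 (238 and 893), and total counts gave 290 and 3276. At 6 months a 2-fold threshold left 1813 (1396 and 417) and total counts gave 4325 and 448. Replicate 9 of the tibialis anterior or replicate 6 of the diaphragm, or both, were left out after seeing the data, and counts then ran from 3120 to 3149 (1627 to 1723 and 1426 to 1502), and from 2663 to 2873 for the change with age. Of 533 named and listed genes tested at 27 months, 516 kept direction and call with edgeR, 519 with DESeq2, 481 with total counts, 472 with Bonferroni adjustment and 435 at 2-fold. For the change with age 444 of 541 did so with total counts. Alb reversed with edgeR (-1.99, adjusted p = 0.0997). The relation of Chrnd to Sln and Trim63 in the diaphragm (r = 0.633 and 0.606 without replicate 6) and to Myh4 and Ppargc1a in the tibialis anterior (r = -0.584 and -0.489 without replicate 9, and -0.456 for Ppargc1a with total counts) lost significance. The causes were not tested. The labels give the muscles the same replicate numbers without saying what a number marks. Libraries of 1 number correlated by 0.0895 to 0.453 (median 0.261, against -0.0225 for different numbers), and 15 of 24 libraries correlated best with their own number, a hint in the data that the numbers may pair. As only 11 of 12 pairs passed 0.1, where all were required, the main fits left the block out. With the replicate block 3112 genes were called at 27 months (1742 and 1370), 2607 for the change with age and 3876 at 6 months. Of the 533 genes, 522 kept direction and call under the block and 5 lost it, among them Alb (0.06, adjusted p = 0.967 by limma) and Tbx4 (adjusted p = 0.0671).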
